A study of Rattus norvegicus with 16 samples.

Results

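The tumour necrosis factor (TNF) ligand and receptor superfamilies were followed in rat liver with age. Members were all non-control probes whose gene name on the array began with Tnfsf or Tnfrsf, together with Tnf, Lta and Ltb. This gave 29 genes on 31 probes, 12 ligands and 17 receptors, among 35119 gene names on the array. A gene was tested where some age had all its arrays well above background, which held for 14 of the 29 and for 21489 genes in all. The samples were livers of male Lewis rats, with no treatment named, aged 3, 9, 12 or 18 months (n = 3 each) or 24 months (n = 4). Each liver sample was hybridised in a single colour to its own Agilent rat array. The labels do not say whether each sample came from its own animal, so p-values measure the spread between these samples, which may be technical.

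TNF superfamily ligands are mostly trimeric proteins of the cell surface that are also shed, and each engages 1 or more receptors of the matching family. Receptors with a cytoplasmic death domain can start cell death, and most others recruit TRAF adaptors that lead to the transcription factor NF-kB. In liver the family is known for hepatocyte injury and regeneration, for the crosstalk of Kupffer cells with hepatocytes, and for costimulation of the T and NK cells that the organ holds.

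Signal is given as log2 of the processed intensity relative to the 75th percentile of the array, so 0 is the level of that percentile and 1 unit is a doubling. Levels are compared between arrays for the same probe or the same list of probes. A summed marker level adds the linear signals of the markers of a list, so the brightest markers weigh most. These were Clec4f among Kupffer cell and macrophage markers and Kdr among liver endothelial markers. A change of a dimmer marker may thus not show in the sum. Arrays had 52.5% to 65.2% of their probes well above background and a 75th percentile of 171 to 412 intensity units. Precision is limited by the number of arrays. The median SD of a gene was 0.0847 log2 units at 3 months, against 0.131 to 0.289 at the later ages. All 6 hepatocyte markers lay above background on all 16 arrays. Array 2 of 12 months and arrays 3 and 4 of 24 months differed most from the rest of their age, with mean correlations across genes of 0.966, 0.974 and 0.975. The arrays filled 7 slides, 3 scan days and 2 scan sessions unevenly. A session here means the scan days of the same calendar year, so arrays that share a session may differ in scan day. Slide 1 held all 3-month arrays and 9-month array 2, and slide 2 held 9-month arrays 1 and 3 and 12-month array 2. The 24-month arrays shared no slide and no scan day with any other age. Against 3 months they shared the scan session, and against 18 months they did not, so scan day and age cannot be told apart in either comparison. Liver was measured in bulk, so fewer cells of a type and less RNA per cell cannot be told apart.

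Detection split the family. The 10 genes above background on all 16 arrays were the ligands Ltb, Tnfsf12 and Tnfsf13 and the receptors Tnfrsf1a, Tnfrsf1b, Tnfrsf4, Tnfrsf11b, Tnfrsf12a, Tnfrsf14 and Tnfrsf25. Another 9 were above background on some arrays. Of these, 4 passed the filter: Tnfsf10 on 15 arrays, Tnfrsf9 and Tnfsf9 on 9 each, and Tnfrsf17 on 8. A gene that passes because it is bright at 1 age tends to differ between ages, so the counts below are read against all genes that passed the same filter. The other 5 did not pass: death receptor DR6 (Tnfrsf21) on 5 arrays, Tnfrsf22 on 4, the costimulatory receptor GITR (Tnfrsf18) on 2, LIGHT (Tnfsf14) on 2 and Tnfrsf26 on 1. Tnfrsf22 and Tnfrsf26 are known from mouse as decoy receptors.

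The remaining 10 genes were above background on none of the 16 arrays. They were Tnf itself, Lta, Tnfsf4, Tnfsf11, Tnfsf15, Tnfsf18, Tnfrsf8, Tnfrsf10b, Tnfrsf13b and Tnfrsf19. Tnf, the founding cytokine of the family, was read by 10 spots of a probe on every array, and the mean of the spots lay between -7.09 and -5.81 log2 units. Lta, which encodes lymphotoxin alpha, lay between -6.87 and -5.54. Such values have no order, and they show that the transcripts were not detectable at the sensitivity of these arrays. Several ligand and receptor partners were therefore measured on 1 side alone. OX40 (Tnfrsf4) was measured without its ligand Tnfsf4, and death receptor DR3 (Tnfrsf25) without its ligand Tnfsf15. The apoptosis-inducing ligand TRAIL (Tnfsf10) was measured without its receptor Tnfrsf10b, and the TNF receptors Tnfrsf1a and Tnfrsf1b without Tnf.

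**Figure D1:**
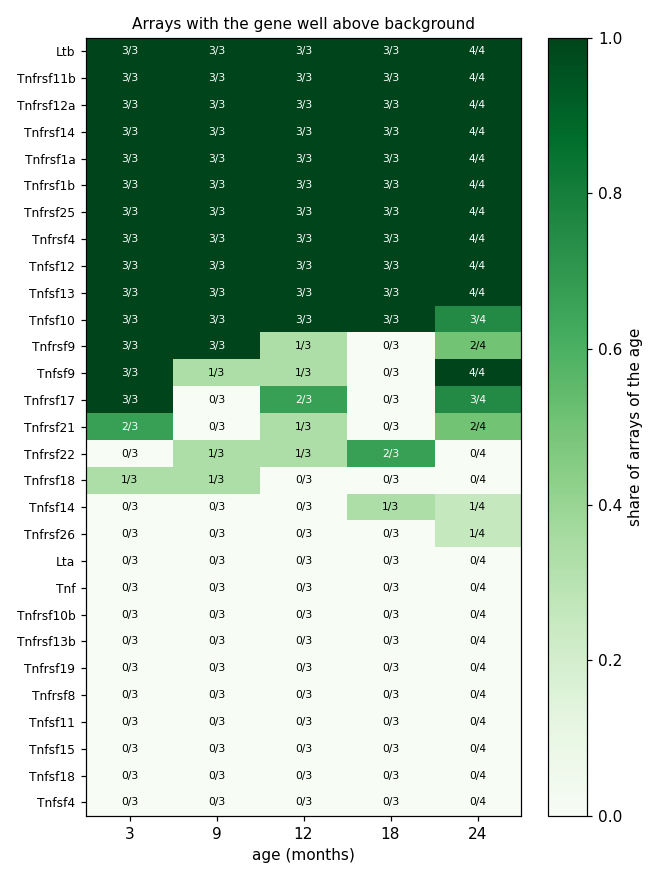
Number of arrays of each age on which each of the 29 TNF superfamily genes lay well above background, with genes down the page and age in months across, and shade giving the share of arrays of that age. The 10 genes at the top were above background on all 16 arrays and the 10 at the bottom on none, and Tnfrsf9 was above it on 0 of 3 arrays at 18 months.

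The sequences behind 3 of these measurements are shown because the results turn on what the array could read: the receptor that changed most (Tnfrsf9), a ligand that rose at 24 months (Ltb), and the cytokine that was not detected (Tnf). Each probe is given as deposited in the array files, with rn4 coordinates from the same files.
Tnfrsf9 probe, chr5:168090349-168099251, plus strand: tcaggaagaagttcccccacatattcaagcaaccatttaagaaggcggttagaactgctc
Ltb probe, chr20:3666709-3666768, minus strand: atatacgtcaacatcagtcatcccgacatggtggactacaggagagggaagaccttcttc
Tnf probe, chr20:3662706-3662765, plus strand: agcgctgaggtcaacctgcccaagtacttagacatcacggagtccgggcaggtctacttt
The Tnfrsf9 probe has 60 bases and spans 8903 bases of the genome, so it crosses at least 1 exon junction. The Ltb and Tnf probes each map to 60 contiguous bases of chromosome 20.

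Tnfrsf9 encodes CD137, a costimulatory receptor that appears on T and NK cells after activation. Its level was high at 3 months and low at every later age. The 3-month arrays gave 1.02, 1.09 and 1.27 log2 units, and the 9-month arrays -2.89, -2.80 and -3.82. The 12-month arrays gave -4.21, -4.28 and -4.07, those of 18 months -5.30, -5.64 and -5.59, and those of 24 months -4.27, -2.98, -3.63 and -4.81. Every array of a later age lay below every 3-month array. The transcript was above background on all 3 arrays at 3 and at 9 months, on 1 at 12 months, on 0 at 18 months and on 2 of 4 at 24 months.

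The comparison of 24 with 3 months spans the widest range of ages. Tnfrsf9 was the single member called, with -3.92 ± 0.79 log2 units at 24 months (SD, n = 4) and 1.13 ± 0.13 at 3 months (SD, n = 3). It fell by 5.05 ± 0.35 log2 units (SE), with a limma adjusted p of 3.05e-06. The transcript was above background on 2 of the 4 arrays at 24 months, and with normexp background correction the fall was smaller, at -2.64, and still called. That is 1 of 14 members tested (7.14%), beside 13.3% of all genes called in this comparison, 4.23% higher and 9.08% lower. The median change was 0.05 for the 14 members and -0.04 for all genes. The fall was also called with the slide as a random block, at -4.89. T and NK cell markers were summed at 11.3 to 31 at 24 months and 12.4 to 14.4 at 3 months, in multiples of the 75th percentile, with 1 of 10 called higher and 2 lower. Neutrophil markers were summed at 1.67 to 51.2 at 24 months and 15.8 to 18.4 at 3 months, with 3 of 5 called lower. Kupffer cell and macrophage markers were summed at 150 to 197 at 24 months and 135 to 144 at 3 months. Of these 7 markers, 4 were called higher. Stellate cell and fibroblast markers were summed at 18.2 to 25.8 at 24 months and 33.6 to 38.4 at 3 months. Of these 5 markers, 3 were called lower. Of 5 cholangiocyte markers 1 was called higher, and of 6 liver endothelial markers 1 was called higher and 1 lower. The part of these cells in the fall was not tested. Groups did not overlap for 5 of 14 members, beside 29% of all genes. Leaving out 24-month array 1, 3 or 4 added a member each time, namely Tnfrsf14, Tnfrsf1b or Tnfrsf12a, so the count of 1 became 2.

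Between 9 and 3 months Tnfrsf9 was called as well; this comparison shares the 3-month arrays with the one of 24 and 3 months. Tnfrsf9 averaged -3.17 ± 0.56 at 9 months and 1.13 ± 0.13 at 3 months (SD, n = 3 each), a change of -4.30 ± 0.37 (SE, limma adjusted p 8.08e-05). Tnfrsf14, which encodes the herpesvirus entry mediator HVEM, a receptor for the ligand LIGHT (Tnfsf14), was the other member called. Its 9-month arrays gave -2.12, -2.21 and -2.80, against -0.84, -0.73 and -0.66 at 3 months, so the groups did not overlap. It fell by 1.63 ± 0.32 log2 units (SE, limma adjusted p 0.00918), 3.11-fold lower. The count was 2 of 14 members (14.3%), beside 5.13% of all genes called, 1.94% higher and 3.2% lower.

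Within slide 1, where a single 9-month array stood against the 3 arrays of 3 months, the difference was -3.93 for Tnfrsf9 and -1.47 for Tnfrsf14, given here without a test. Without 9-month array 3 the Tnfrsf14 call was narrowly lost, at -1.42 (limma adjusted p 0.0516). Tnfrsf9 alone was called then, beside 2.34% of all genes. With normexp background correction Tnfrsf9 changed by -2.73, still called, and Tnfrsf14 by -0.92, not called. A second Tnfrsf14 probe, above background on 11 arrays, changed by -1.55 and was not called. Beside these 2, another 9 members had a negative change at 9 months and did not pass the test. The median change was -0.49 for the 14 members and 0.04 for all genes. Groups did not overlap for 9 of 14 members, beside 41% of all genes.

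Markers of T and NK cells, of neutrophils, and of stellate cells and fibroblasts were lower at 9 months as well. The summed level of 10 T and NK cell markers lay between 3.64 and 4.17 at 9 months and between 12.4 and 14.4 at 3 months, in multiples of the 75th percentile, and 6 of 10 were called lower. The summed level of 5 neutrophil markers lay between 0.927 and 1.53 at 9 months and between 15.8 and 18.4 at 3 months, and 3 of 5 were called lower. Stellate cell and fibroblast markers were summed at 20.6 to 24.7 at 9 months and 33.6 to 38.4 at 3 months. Of these 5 markers, 1 was called lower. The sums of the other lists overlapped for liver endothelial markers, with 2 of 6 called lower, and for Kupffer cell and macrophage markers, with 2 of 7 called higher. Those 2 were Vsig4, at 1.65, and Cd163, at 1.24, while Clec4f, the brightest of that list, changed by -0.02. Sums also overlapped for cholangiocyte markers, with 1 of 5 called higher. The B and plasma cell markers Cd79a and Cd79b were summed at 0.0757 to 0.0834 at 9 months and 0.117 to 0.125 at 3 months, with 0 of 2 called. The part of these cells in the fall of Tnfrsf9 and Tnfrsf14 was not tested. Hepatocyte markers were summed at 3250 to 3700 at 9 months and 2690 to 3130 at 3 months.

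**Figure D2:**
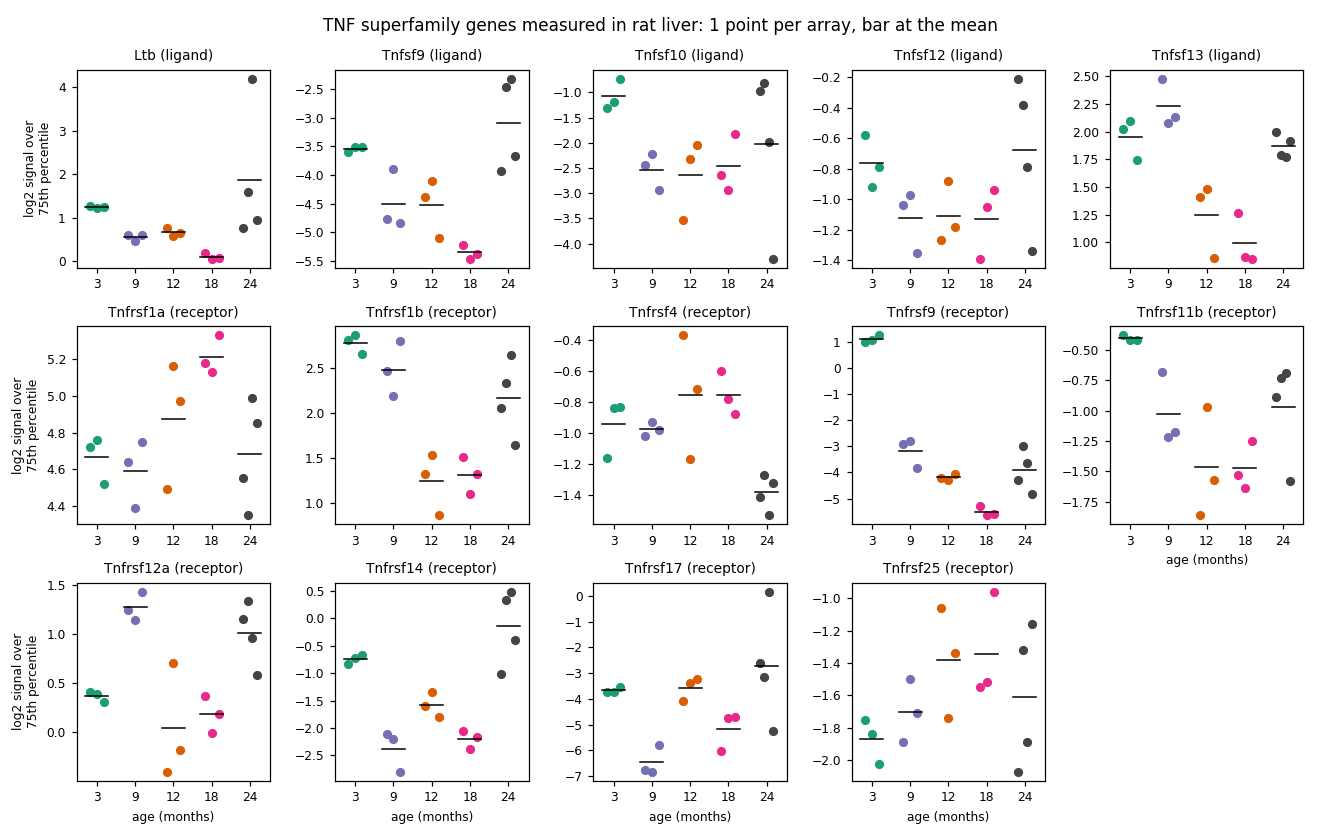
Log2 signal relative to the 75th percentile of the array (vertical axis, own scale in each panel) against age in months for the 14 tested members, with 1 point per array and a bar at the mean of the age. Tnfrsf9 lies between 1.02 and 1.27 at 3 months and at or below -2.80 at every later age, while Ltb, Tnfsf10 and Tnfrsf17 spread most at 24 months.

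Between 12 and 9 months Tnfrsf1b, Tnfsf13 and Tnfrsf12a fell. Tnfrsf1b encodes TNF receptor 2, found mainly on immune and endothelial cells. Its 12-month arrays gave 1.33, 1.53 and 0.87, against 2.46, 2.19 and 2.79 at 9 months. It fell by 1.24 ± 0.24 (SE, limma adjusted p 0.0111). Tnfsf13 encodes APRIL, a survival factor of B and plasma cells. Its 12-month arrays gave 1.41, 1.48 and 0.86, against 2.48, 2.08 and 2.13 at 9 months, a change of -0.98 ± 0.19 (SE, limma adjusted p 0.00929). Tnfrsf12a encodes Fn14, the receptor of TWEAK (Tnfsf12), which is known in liver for injury and progenitor cell responses. Its 12-month arrays gave -0.40, 0.70 and -0.18, against 1.24, 1.14 and 1.43 at 9 months, a change of -1.23 ± 0.25 (SE, limma adjusted p 0.0128). None of the 3 genes overlapped between the 2 ages.

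All 3 were lower, 3 of 14 members (21.4%), beside 6.27% of all genes called, 3.17% higher and 3.1% lower. The median change was -0.01 both for the members and for all genes. Within slide 2, where 12-month array 2 alone stood against 9-month arrays 1 and 3, the difference was -1.73 for Tnfrsf12a, -1.29 for Tnfrsf1b and -0.89 for Tnfsf13, given here without a test. With normexp background correction Tnfrsf1b was called, and Tnfsf13 and Tnfrsf12a were not, at adjusted p values of 0.0753 and 0.0911 from limma. Without 9-month array 3 the calls of Tnfrsf12a and Tnfrsf1b were narrowly lost, at -1.15 and -1.08 (limma adjusted p 0.0556 and 0.0531). Tnfsf13 alone passed then, beside 2.35% of all genes. In a fit of the 12-month and 9-month arrays alone none of the 3 passed and Tnfrsf17 did. Groups did not overlap for 6 of 14 members, beside 25.8% of all genes.

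Cholangiocyte markers lay lower at 12 months too, summed at 1.44 to 2.02 at 12 months and 2.46 to 4.12 at 9 months with no overlap, and 1 of 5 was called lower. Stellate cell and fibroblast markers were summed at 18.7 to 23.1 at 12 months and 20.6 to 24.7 at 9 months, with 1 of 5 called lower. The sums of Kupffer cell and macrophage markers and of T and NK cell markers overlapped between the 2 ages. Neutrophil markers were summed higher, at 1.6 to 3.62 at 12 months and 0.927 to 1.53 at 9 months, with 0 of 5 called. The B and plasma cell markers Cd79a and Cd79b were summed at 0.0921 to 0.162 at 12 months and 0.0757 to 0.0834 at 9 months. Of these 2, 0 were called, and 0 lay above background at 9 months. The part of these cells in the 3 changes was not tested.

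Between 18 and 12 months 0 of 14 members passed the limma test, beside 1.38% of all genes, 1.07% higher and 0.316% lower. At an unadjusted p under 0.05 there was 1, Tnfrsf9. Its 18-month mean was -5.51 ± 0.18 and its 12-month mean -4.19 ± 0.11 (SD, n = 3 each), with a limma adjusted p of 0.0957. Fitted within scan session 2, which held the 18-month arrays and 12-month arrays 3 and 4, Tnfrsf9 was called, although no 18-month array lay above background. The members' median change was -0.01, against -0.06 over all genes, and 5 of 14 did not overlap, beside 25.3% of all genes. At 18 months 6 of the 14 members had their lowest mean of the 5 ages: Ltb, Tnfsf9, Tnfsf12, Tnfsf13, Tnfrsf9 and Tnfrsf11b. The same age held the lowest mean for 29.4% of all genes. Tnfsf9 and Tnfrsf9 lay above background on no 18-month array, so their rank is uncertain. Tnfrsf11b averaged -1.48 at 18 months and -1.47 at 12 months. Tnfsf12 averaged -1.13 at 18 months, -1.12 at 9 months and -1.11 at 12 months, so these 2 were barely the lowest.

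The comparison of 24 with 18 months called the most members of the 5, 9 of 14 (64.3%), beside 25.8% of all genes. Of these, 7 rose, beside 10.8% of all genes called higher, and 2 fell, beside 15% called lower. The median change was 0.84 for the members and 0.05 for all genes. Among ligands Tnfsf9, Ltb and Tnfsf13 rose, and among receptors Tnfrsf14, Tnfrsf9, Tnfrsf1b and Tnfrsf12a. Tnfrsf1a and Tnfrsf4 fell. Groups did not overlap for 9 of 14 members, beside 35.4% of all genes.

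None of these 9 calls held with the slide as a random block, although the changes kept their size and sign: 2.10 for Tnfrsf14, 2.29 for Tnfsf9 and 1.96 for Ltb, for example. With the scan session as a block, which rests on the 12-month arrays alone to link the sessions, 3 passed, Tnfrsf12a, Tnfrsf14 and Tnfrsf4, and Tnfrsf1a turned to 0.04. With normexp background correction 2 passed, Ltb and Tnfrsf14. Without 18-month array 3 the count was 5, beside 18.1% of all genes called in that fit. Without 24-month array 4 it was 13. The share of all genes in that fit is not given here, so the 13 are not read as a result about the family.

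Tnfsf9, the ligand of CD137 that antigen-presenting cells carry, rose together with its receptor. Its 24-month arrays gave -3.93, -2.46, -2.32 and -3.66, against -5.22, -5.46 and -5.37 at 18 months, where no array lay above background. The change was at least 2.68-fold higher, against the background limit, with a fitted 2.26 ± 0.37 log2 units (SE, limma adjusted p 0.000615). Tnfsf9 lay at -3.59, -3.52 and -3.51 at 3 months, and it was not called between 24 and 3 months (0.45 ± 0.37, SE, limma adjusted p 0.493). Whether the change of the ligand differed from that of the receptor was not tested. At 9 months it gave -4.77, -3.90 and -4.83 and at 12 months -4.38, -4.11 and -5.09, with 1 array above background at each age. Tnfrsf9 itself averaged 1.5-fold higher at 24 months than the background limit that stands for 18 months. As 2 of the 4 arrays of 24 months lay above background, this is not a lower bound. The fitted change of Tnfrsf9 was 1.58 ± 0.35 (SE, limma adjusted p 0.00415). Its 24-month arrays stayed below all 3-month arrays. With normexp background correction the changes were 0.76 for Tnfsf9 and 0.59 for Tnfrsf9, and neither was called.

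Tnfrsf14 gave -1.01, 0.34, 0.49 and -0.40 at 24 months, against -2.05, -2.38 and -2.16 at 18 months. It rose by 2.05 ± 0.30 (SE, limma adjusted p 0.000222), 4.15-fold. At 12 months its arrays gave -1.60, -1.34 and -1.81. The second probe of the gene rose by 1.63 and was called as well. The ligand LIGHT (Tnfsf14) was above background on 1 array at 24 months and 1 at 18 months, and was not tested.

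Ltb encodes lymphotoxin beta, which joins lymphotoxin alpha in a surface trimer that signals through the receptor Ltbr. Its 24-month arrays gave 0.76, 1.60, 4.20 and 0.94, against 0.18, 0.05 and 0.06 at 18 months. The groups did not overlap, and 24-month array 3 stood far above the others. Ltb rose by 1.78 ± 0.58 (SE, limma adjusted p 0.0362), 3.44-fold, and without that array by 1.01, also called. Without 24-month array 2, or without any 1 of the 18-month arrays, it was not called, at 1.76 to 1.87. At the other ages Ltb was tight: 1.27, 1.21 and 1.25 at 3 months, 0.60, 0.45 and 0.60 at 9 months, and 0.77, 0.58 and 0.64 at 12 months.

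**Figure D3:**
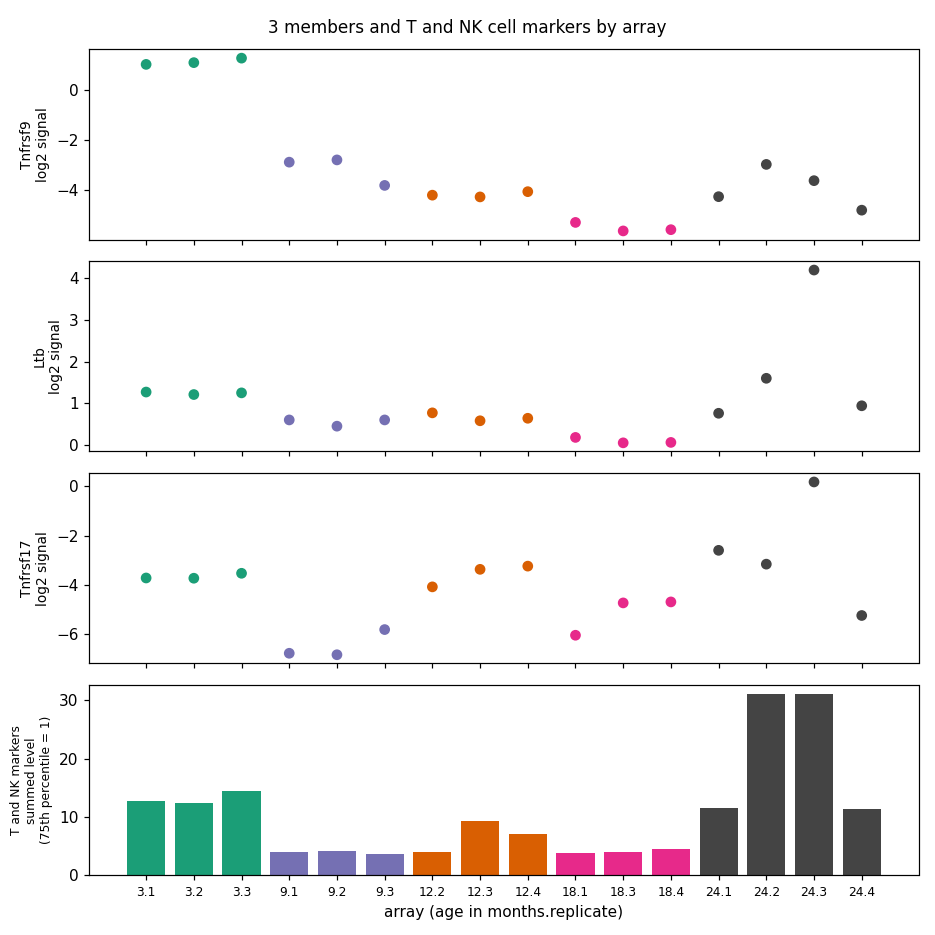
Log2 signal of Tnfrsf9, Ltb and Tnfrsf17 (upper panels) and the summed level of 10 T and NK cell markers in multiples of the 75th percentile (lowest panel) for each of the 16 arrays, named by age in months and replicate. The 24-month array 3 holds the highest Ltb (4.20) and Tnfrsf17 (0.17), and 24-month arrays 2 and 3 hold the highest summed T and NK markers (31).

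Tnfsf13 and Tnfrsf1b, which had fallen at 12 months, rose at 24 months. Tnfsf13 gave 2.0, 1.79, 1.77 and 1.92 at 24 months, against 1.26, 0.87 and 0.85 at 18 months, a rise of 0.88 ± 0.17 (SE, limma adjusted p 0.00212). At 3 months it had given 2.02, 2.10 and 1.74, and the 24-month and 3-month arrays overlapped. Tnfrsf1b gave 2.06, 2.33, 2.64 and 1.65 at 24 months, against 1.51, 1.10 and 1.33 at 18 months, a rise of 0.86 ± 0.23 (SE, limma adjusted p 0.013). At 3 months it had given 2.81, 2.86 and 2.65, just above all 24-month arrays, with no call (-0.60 ± 0.23, SE, limma adjusted p 0.102).

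Tnfrsf12a gave 1.15, 1.33, 0.96 and 0.58 at 24 months, against 0.37, -0.01 and 0.19 at 18 months. It rose by 0.82 ± 0.23 (SE, limma adjusted p 0.0184), and its second probe by 0.44, not called. At 3 months the arrays gave 0.41, 0.39 and 0.31, so the order of means was 12, 18, 3, 24 and 9 months, and each age overlapped its neighbour in that order except 24 and 3 months. TWEAK, its ligand (Tnfsf12), was not called in any comparison: it averaged -0.68 ± 0.50 at 24 months (SD, n = 4) and -1.13 ± 0.23 at 18 months (SD, n = 3).

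The 2 members that fell at 24 months were small in size. Tnfrsf1a encodes TNF receptor 1, the death domain receptor of most cell types. It gave 4.55, 4.35, 4.99 and 4.85 at 24 months, against 5.18, 5.13 and 5.33 at 18 months, a change of -0.53 ± 0.18 (SE, limma adjusted p 0.0466), 1.45-fold lower. At 3 months it gave 4.72, 4.76 and 4.52, at 9 months 4.64, 4.39 and 4.75, and at 12 months 4.49, 5.16 and 4.97. Over the 5 ages it did not pass the F test (limma adjusted p 0.0883). Tnfrsf4, or OX40, a costimulatory receptor of activated T cells, gave -1.41, -1.27, -1.53 and -1.32 at 24 months, against -0.60, -0.78 and -0.88 at 18 months. It fell by 0.63 ± 0.17 (SE, limma adjusted p 0.0124), 1.55-fold lower. At 3 months it gave -1.16, -0.84 and -0.83, at 9 months -1.02, -0.93 and -0.98, and at 12 months -0.37, -1.17 and -0.72. The fitted changes of OX40 and CD137 between 24 and 18 months had opposite signs, although CD137 lay above background on no 18-month array. With normexp background correction they were -0.26 for OX40 and 0.59 for CD137, and neither was called. Whether the 2 changes differed was not tested.

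**Figure D4:**
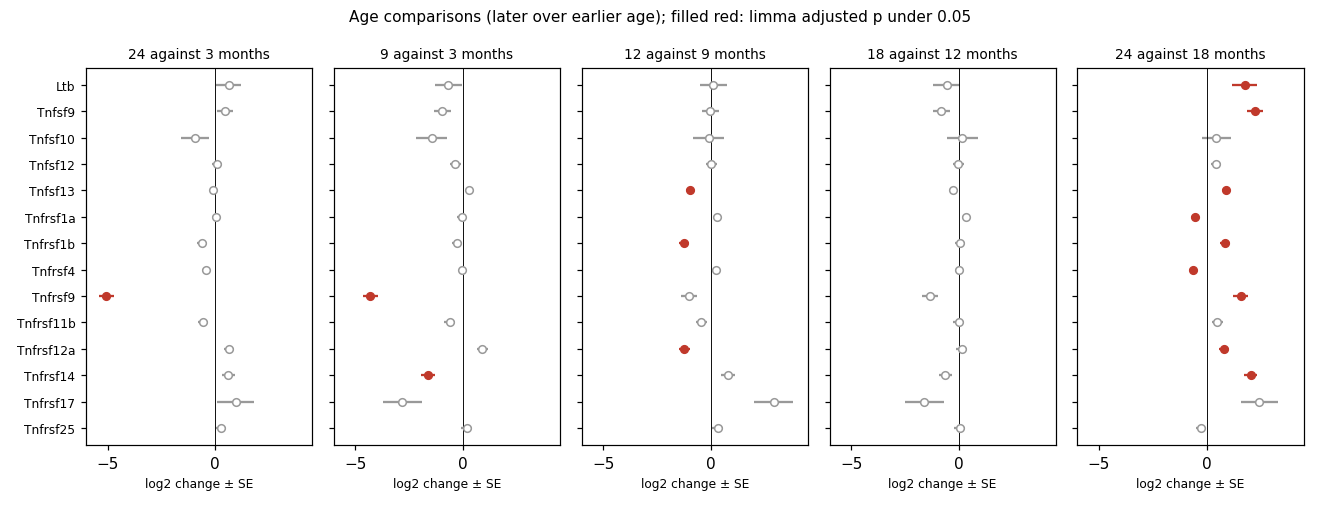
Log2 change (later over earlier age) with its SE for the 14 tested members in each of the 5 comparisons, filled red where the limma adjusted p was under 0.05. Tnfrsf9 is the single member called between 24 and 3 months, at -5.05, and 9 members are called between 24 and 18 months, 7 of them higher.

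T and NK cell markers moved with these genes. Of 10 tested, 9 were called higher at 24 than at 18 months, and their summed level lay between 11.3 and 31 at 24 months and between 3.86 and 4.53 at 18 months. The 24-month arrays 2 and 3, which had the highest sums, also had the highest Ltb, Tnfrsf14, Tnfsf9, Tnfrsf1b and Tnfrsf9 of that age. The other 2 members that rose differed from this: Tnfsf13 was lowest on arrays 2 and 3, and Tnfrsf12a was higher on array 1 than on array 3. Kupffer cell and macrophage markers were summed at 150 to 197 at 24 months and 96.9 to 121 at 18 months, with 4 of 7 called higher. Neutrophil markers were summed at 1.67 to 51.2 at 24 months, highest on array 3, and at 1.61 to 3.95 at 18 months, with 0 of 5 called higher and 1 lower. Cholangiocyte markers were summed at 2.99 to 4.42 at 24 months and 1.71 to 2.01 at 18 months, with 4 of 5 called higher. Hepatocyte markers were summed at 1830 to 3140 at 24 months, lowest on array 3, and 3160 to 3480 at 18 months, with 0 of 6 called. Liver endothelial markers were summed at 59.8 to 73.7 at 24 months and 63.7 to 75.4 at 18 months, with 1 of 6 called higher. Stellate cell and fibroblast markers were summed at 18.2 to 25.8 at 24 months and 12.5 to 14.7 at 18 months, with 2 of 5 called higher and 1 lower. The part of these cells in the changes was not tested.

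Over all 5 ages 9 of 14 members passed the F test, beside 37.4% of all genes. These were Tnfrsf9 (limma adjusted p 2.85e-06), Tnfrsf14 (0.000309), Tnfrsf1b (0.000732), Tnfsf13 (0.000817), Tnfsf9 (0.00272), Tnfrsf12a (0.00435), Tnfrsf11b (0.021), Tnfrsf17 (0.0227) and Tnfrsf4 (0.0312). Tnfrsf11b and Tnfrsf17 passed it without passing any of the 5 comparisons. The Tnfrsf11b call was lost without any 1 of the 3-month arrays, with the replicate block and with normexp background correction. The Tnfrsf17 call was lost without 9-month array 1 or 2 and with normexp background correction, and that of Tnfrsf4 under 8 of 26 alternatives, which included leaving out 18-month array 1 or 3 or 24-month array 1 or 3. Tnfrsf11b encodes osteoprotegerin, a secreted decoy receptor for RANKL (Tnfsf11) and TRAIL (Tnfsf10). Its mean was -0.41 ± 0.03 in 3-month livers and -1.03 ± 0.30 in 9-month livers (SD, n = 3 each). In 12-month livers it was -1.47 ± 0.45 and in 18-month livers -1.48 ± 0.20 (SD, n = 3 each). At 24 months it averaged -0.97 ± 0.41 (SD, n = 4), and all 24-month arrays lay below all 3-month arrays.

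Tnfrsf17 encodes the B cell maturation antigen BCMA, a receptor of APRIL found on plasma cells. Its 24-month arrays gave -2.60, -3.16, 0.17 and -5.24, and those of 18 months -6.04, -4.73 and -4.69. At 3 months they gave -3.72, -3.73 and -3.53, at 9 months -6.77, -6.83 and -5.81, and at 12 months -4.08, -3.37 and -3.24. It was above background on all 3-month arrays, no 9-month array, 2 of the 12-month arrays, no 18-month array and 3 of 4 24-month arrays. The difference between 24 and 18 months missed the threshold (limma adjusted p 0.0509). Of the B and plasma cell markers, Cd79a and Cd79b were tested. Their summed level was 0.25 on 24-month array 3 and 0.0634 to 0.119 on the other 24-month arrays, and 0.105 to 0.145 at 18 months.

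TRAIL (Tnfsf10), DR3 (Tnfrsf25) and TWEAK (Tnfsf12) passed no test. TRAIL averaged -2.02 ± 1.61 at 24 months (SD, n = 4), where its arrays ran from -4.30 to -0.81, and -1.08 ± 0.31 at 3 months (SD, n = 3). DR3 averaged -1.61 ± 0.44 at 24 months and -1.87 ± 0.14 at 3 months (SD, n = 4 and n = 3). Among the 24-month arrays, array 4 was the lowest of TRAIL, TWEAK, BCMA, osteoprotegerin, Tnfrsf1b, Tnfrsf12a and Tnfrsf9. It was not the lowest of the other tested members, and it was the highest of DR3, at -1.16. The same array had the lowest share of probes above background, 52.5%. Whether that share bears on these levels was not tested.

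Promoters were searched for an NF-kB motif, GGANNTTCC, and an AP-1 motif, TGANTCA, on both strands in the 250 bases before the start of each gene, from RefSeq on GRCr8. A promoter was listed for 22 of the 29 members. The NF-kB motif stood in 2 of the 22, Ltb and Tnf, and in 3.36% of all 33469 promoters. The AP-1 motif stood in 2, Tnfrsf1b and Tnfrsf8, and in 6.34% of all promoters. Of the 7 members that rose between 24 and 18 months, Tnfsf13 and Tnfrsf12a held neither motif, and no promoter was listed for Tnfrsf14 and Tnfsf9. The promoters of 3 others that rose, Tnfrsf9, Ltb and Tnfrsf1b, are shown, chosen after values were seen. They read 5′ to 3′ on the gene's strand, with motif matches in capitals.
Tnfrsf9, chr5:166664244-166664493, plus strand: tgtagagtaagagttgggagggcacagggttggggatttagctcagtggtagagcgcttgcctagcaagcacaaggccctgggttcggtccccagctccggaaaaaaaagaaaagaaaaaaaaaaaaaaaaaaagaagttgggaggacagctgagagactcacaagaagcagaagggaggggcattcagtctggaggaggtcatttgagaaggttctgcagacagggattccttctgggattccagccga
Ltb, chr20:3634055-3634304, minus strand: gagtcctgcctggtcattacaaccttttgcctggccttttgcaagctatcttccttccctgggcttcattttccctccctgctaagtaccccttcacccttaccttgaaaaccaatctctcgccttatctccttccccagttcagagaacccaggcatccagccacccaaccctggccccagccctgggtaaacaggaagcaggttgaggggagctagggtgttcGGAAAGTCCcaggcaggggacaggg
Tnfrsf1b, chr5:162387412-162387661, minus strand: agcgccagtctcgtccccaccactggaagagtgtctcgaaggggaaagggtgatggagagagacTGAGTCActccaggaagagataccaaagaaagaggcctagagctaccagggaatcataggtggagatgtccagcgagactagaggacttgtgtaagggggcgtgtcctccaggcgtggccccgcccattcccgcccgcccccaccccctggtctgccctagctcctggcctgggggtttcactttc
The match before Ltb begins at -25 from the start and that before Tnfrsf1b at -186. The window before Tnfrsf9 held neither set of letters. These matches describe the sequence, and binding was not measured.

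Superfamily genes that carry other symbols were taken from a list of 12, of which 8 were tested. Between 24 and 18 months 3 of the 8 were called higher and 1 lower, beside 25.8% of all genes called, with a median change of 0.64. Faslg, the death ligand of cytotoxic T and NK cells, averaged -0.41 ± 0.88 at 24 months (SD, n = 4) and -3.19 ± 0.06 at 18 months (SD, n = 3), a change of 2.78 (limma adjusted p 9.3e-05). Relt, a receptor of haematopoietic cells, changed by 1.41 (limma adjusted p 0.00064), and Cd40, the costimulatory receptor of B cells and macrophages, by 0.88 (limma adjusted p 0.00213). Eda2r, the receptor of ectodysplasin A2, fell by 1.02 (limma adjusted p 0.0449). Between 9 and 3 months 0 of 8 were called higher and 3 lower (37.5%), beside 5.13% of all genes called. The changes were -2.20 for Relt, -1.65 for Faslg and -1.67 for Edar, a receptor of ectodysplasin. Between 24 and 3 months Faslg was called higher, at 1.20, and Relt lower, at -1.06, together 25% of the 8, beside 13.3% of all genes. Fas and Ltbr, the receptors of Faslg and of lymphotoxin, and Ngfr were called in none of the comparisons, and Cd27, Cd40lg, Cd70 and Eda were not tested.

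Genes of the signalling pathway below the receptors were taken from a list of 36. Of these, 31 were tested, and between 24 and 18 months 6 were called higher and 3 lower, with a median change of 0.30 against 0.05 for all genes. These 9 were 29% of the 31, near the 25.8% of all genes called. Traf1, an adaptor that binds receptors such as CD137 and TNF receptor 2, averaged -1.17 ± 0.52 at 24 months (SD, n = 4) and -2.56 ± 0.37 at 18 months (SD, n = 3), a change of 1.40 (limma adjusted p 0.000987). Between the same ages the NF-kB inhibitor Nfkbie rose by 0.67 and Sharpin, of the linear ubiquitin ligase, by 0.62. Tab2, a partner of the kinase TAK1, fell by 0.73, the adaptor Traf4 fell by 0.50, and the IKK subunit Chuk fell by 0.43. Between 24 and 3 months 2 signalling genes were called higher, Traf1 at 0.87 and Nfkbib at 0.55, and 1 lower, Cflar at -0.68, together 9.68% of the list, beside 13.3% of all genes.

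Between 9 and 3 months 0 of 31 signalling genes were called higher and 2 lower (6.45%), beside 5.13% of all genes. Nfkbia, which encodes the inhibitor IkB alpha and is itself a target of NF-kB, averaged 2.30 ± 0.07 at 9 months and 3.65 ± 0.04 at 3 months (SD, n = 3 each), a change of -1.35 (limma adjusted p 0.0112). Cflar, which encodes the caspase-8 inhibitor cFLIP, averaged 0.04 ± 0.10 at 9 months and 1.02 ± 0.08 at 3 months, a change of -0.98 (limma adjusted p 0.0112). Nfkbia was called higher at 12 than at 9 months, at 1.03, and 1 gene, Rela, lower. Between 18 and 12 months 0 of 31 passed, and over all ages 15 of 31 (48.4%) passed the F test, beside 37.4% of all genes. Traf5, Fadd, Relb, Tnfaip3 and Otulin were not tested.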

How the data were processed

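Per the file headers, the deposited scanner files come from Agilent Feature Extraction software (10.7.3.1) and an array annotated on rn4, and hold intensity values (processed signal, mean signal and local background) with no normalization between arrays. Flags for background, saturation and outliers, per the file headers, are yes-or-no columns (other). A further table of log2 values was deposited by the authors, whose normalization is not given in the sources used here, and it served as an alternative. The labels name a microRNA labelling kit although the array reads mRNA.

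Each array's processed signal was put on the log2 scale and centred on its own 75th percentile. Spots flagged as outliers were left out and spots of a probe averaged. Kept were 25698 of 41012 probes, those for which some age had all arrays well above background. A gene was read from its kept probe with the highest mean; Tnfrsf12a and Tnfrsf14 have 2 probes. Gene names came from the array and, for 18028 probes and 24 of the 29 members, from RefSeq accessions (GRCr8).

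A mean per age was fitted to all 21489 genes on all 16 arrays with limma 3.58.1 in R 4.3.3 (with data.table at version 1.17.8 and statmod 1.5.0), with two-sided moderated tests, Benjamini-Hochberg adjustment over all genes and a threshold of 0.05. The ages compared were 24 with 3 months and each age with the one before it, and an F test covered all ages. The procedure was tested on simulated data. Where a group was above background on no array, a change is given as the fold against the lowest signal among probes well above background. It is written as at least that fold only where the other group lay above background on all its arrays. Figures were drawn in Python 3.11.15 with pandas 2.3.3 and matplotlib 3.10.9.

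Every member that passed a comparison or the F test is named with its values and every other member once; signalling genes are the 8 called ones with the smallest F test p. Rela, Nfkbib, Eda2r, Edar and Cd40, and the 3 promoters and 3 probes printed, were chosen after values were seen. Members, lists and tests were chosen with earlier results of these data known. Alternatives were quantile normalization, normexp correction (offset 50), the deposited log2 values, filters that kept all probes or those above background on all 16 arrays, averaging a gene's probes, slide, scan session or replicate number as a block, the compared ages alone, and leaving out each array. Fits within a slide or session, 24-month arrays 3 and 4 left out together and the second probe were added after seeing the data.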

Additional observations from a re-analysis of the deposited data

How the results depend on the processing

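Quantile normalization and the series table kept all 6 counts of called members within 1.5 times. The call of Tnfrsf9 between 24 and 3 months held under all 17 alternatives run. That between 9 and 3 months also held, leaving aside the fit within slide 1, which has a single 9-month array. Some alternatives could not move the Tnfrsf9 change. The gene has 1 probe, so averaging probes or keeping all of them left its change as it was. The scan session as a block could not move it in either comparison, whose arrays were all of session 1. With normexp correction the counts were 1 between 9 and 3 months, 1 between 12 and 9, 2 between 24 and 18 and 4 in the F test; it moved the median change of all genes by 0.16 between 24 and 3 months and by 0.08 between 24 and 18, and called 0.772% to 4.54% of all genes in these 3 comparisons and 7.53% in the F test. Without a filter 29 members entered and 2 were called between 24 and 3 months, Tnf among them though above background on no array; with the filter on all 16 arrays Tnfrsf9 did not enter and the count was 0. The slide as a random block gave 4 between 9 and 3 months (9.56% of all genes) and 0 between 24 and 18 (4.54%), and as a fixed block 4 between 9 and 3 (10.6%). Scan session as a block gave 2 between 24 and 3 months (17.8% of all genes) and 3 between 24 and 18 (13.1%), where it moved the median of all genes by -0.17, and turned Tnfrsf1a to 0.04 there. The compared ages alone gave 8 between 9 and 3 months, beside 19.2% of all genes, and 1 between 12 and 9, beside 1.03%. Without 24-month arrays 3 and 4 together there were 2 between 24 and 3 months and 11 between 24 and 18. The shares of all genes in that fit are not given here, so these counts are not read as results about the family. Within slide 1 a single 9-month array stands against the 3-month arrays, the ones with the smallest spread. Its own spread cannot be estimated, so the size of the difference alone is given, in the Results. Within slide 2 the spread comes from 2 arrays of 9 months alone, and within scan session 2 there was 1 between 18 and 12. The cause of these moves was not tested. Leaving out each replicate in turn gave 1 to 2 calls between 24 and 3 months, 1 to 2 between 9 and 3, 1 to 3 between 12 and 9, 0 between 18 and 12, 5 to 13 between 24 and 18, and 8 to 11 in the F test. The share of all genes moved between these fits too. In the F test it was 29.2% without 3-month array 2 and 45.4% without 12-month array 2.

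Same-numbered replicates did not deviate together (25 pairs, correlations -0.37 to 0.18, median -0.09). Differently numbered ones spread as widely (77 pairs, -0.36 to 0.32, median 0.03). The samples were therefore not treated as paired, although with 3 or 4 arrays per age this check cannot exclude a pairing by number. With the replicate block the counts were 1, 2, 2, 0 and 7 in the order given and 8 in the F test. Beside them stood 9.88%, 3.7%, 1.7%, 0.456% and 20.3% of all genes, and 25.2% in the F test. Of 501 values of single members under the alternatives, 423 kept direction and call, 77 kept direction and lost the call, and 1 turned. Signal over background limits what can be said of 15 members that were not tested and of changes of Tnfrsf9 (12, 18 and 24 months), Tnfsf9 (9, 12 and 18 months) and Tnfrsf17 (every age but 3 months).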
